A study of Mus musculus with 4 samples.

Results

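The replication-dependent and linker histone genes were taken as all genes whose symbol starts with Hist1h, Hist2h, Hist3h or Hist4h and that had 20 or more UMIs (unique molecular identifiers, counted RNA molecules) over the 4 deposited matrices. Of 31053 genes in the files, 67 carry such a symbol and 54 met the count. The other 13 had at most 18 UMIs each, and 4 of them had 0. The lowest gene that was kept had 22. The 54 genes hold 6 linker histone (H1) genes, 13 H2A, 14 H2B, 10 H3 and 11 H4 genes, and together 37999 of 116289858 UMIs, or 0.0327%. The samples are tumours of B16F10, a mouse melanoma line, with 1 single-cell library for each of 4 groups. These are aPD-1 (an antibody to PD-1, an inhibitory T cell receptor), D+F (doxorubicin, a topoisomerase II poison, with fasudil, a vasodilator), D+F+P (those agents with the antibody) and control. All groups are tumours of this line, and the number of mice behind a library, their strain and their age are not given in the sources used here.

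Core histones H2A, H2B, H3 and H4 form the nucleosome, and H1 proteins bind the DNA between nucleosomes. The replication-dependent genes sit in clusters, are transcribed mostly in S phase, and make mRNAs that end in a conserved stem-loop in place of a poly(A) tail. The stem-loop is bound by SLBP. Some of the genes also give polyadenylated mRNA, above all in cells that have left the cycle, and libraries primed with oligo-dT capture mainly such mRNA. Levels below therefore describe the captured part of each gene's RNA.

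The stem-loop is shown for 7 genes that recur in the results, to compare the element between families. Capitals mark the stem-loop and lower case the bases next to it, read from GENCODE M21 transcripts on GRCm38.
Hist1h1e, chr13:23621777-23621802, minus strand: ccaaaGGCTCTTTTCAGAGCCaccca
Hist1h1t, chr13:23696520-23696545, plus strand: ccaaaGGCTCTTTTAAGAGCCactta
Hist1h2ae, chr13:23570663-23570688, minus strand: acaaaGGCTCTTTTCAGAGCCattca
Hist1h2ap, chr13:21833026-21833049, minus strand: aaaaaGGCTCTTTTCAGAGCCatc
Hist1h3e, chr13:23561898-23561923, minus strand: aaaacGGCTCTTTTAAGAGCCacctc
Hist1h4d, chr13:23581945-23581970, plus strand: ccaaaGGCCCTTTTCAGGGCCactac
Hist1h4i, chr13:22040961-22040986, minus strand: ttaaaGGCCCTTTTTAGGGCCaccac
The annotated transcripts of 17 of the 54 genes end within 100 bases of the stem-loop, and these hold 16.6% of the UMIs, with a median of 146 per gene. In 22 genes the transcript runs 100 or more bases past it, and these hold 60.8% of the UMIs, with a median of 367. In 15 genes no stem-loop was found in the annotated transcript, and these hold 22.6%, with a median of 149.

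Promoters from RefSeq on GRCm38.p6 (250 bases before to 50 after the start) were matched for 49 of the 54 genes. The motif CCAAT, on either strand, was found in 42 (85.7%, against 37.4% of all 32851 promoters of that length). TATAAA was found in 27 (55.1%, against 13.6%) and AAACACA, known as the H1 box, in 7 (14.3%, against 7.18%). AAACACA was found in 5 of 6 H1 promoters and in 2 of 43 core histone promoters. A match describes these windows only, and no match overlaps another in the windows shown. The 250 upstream bases are shown for 3 H1 genes that behaved differently below, with matches to the 3 motifs in capitals.
Hist1h1b, chr13:21780626-21780875, minus strand: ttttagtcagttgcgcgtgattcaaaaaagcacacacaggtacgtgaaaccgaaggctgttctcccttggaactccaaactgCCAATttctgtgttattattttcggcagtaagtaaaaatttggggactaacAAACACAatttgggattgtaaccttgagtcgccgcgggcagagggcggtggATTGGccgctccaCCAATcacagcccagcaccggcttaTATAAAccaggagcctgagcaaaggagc
Hist1h1e, chr13:23622559-23622808, minus strand: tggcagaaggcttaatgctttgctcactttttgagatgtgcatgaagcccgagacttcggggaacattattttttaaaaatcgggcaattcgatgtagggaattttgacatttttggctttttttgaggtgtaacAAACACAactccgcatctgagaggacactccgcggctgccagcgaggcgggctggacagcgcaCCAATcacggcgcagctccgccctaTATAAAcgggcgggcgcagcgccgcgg
Hist1h1c, chr13:23738557-23738806, plus strand: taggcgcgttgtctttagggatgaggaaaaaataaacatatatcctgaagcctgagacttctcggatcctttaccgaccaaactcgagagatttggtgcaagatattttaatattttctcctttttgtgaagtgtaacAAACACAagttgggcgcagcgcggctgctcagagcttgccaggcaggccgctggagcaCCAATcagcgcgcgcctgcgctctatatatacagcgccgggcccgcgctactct

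After filtering, 2214, 2483, 2443 and 2275 cells were kept in the aPD-1, D+F, D+F+P and control libraries, from 27216211, 31937128, 22691663 and 34444856 UMIs. Thin barcodes (500 to 1000 UMIs) made up 41.0% of the D+F+P library and 6.73% to 12.6% of the others. Pairs of libraries shared 2 to 17 barcodes. Cells were grouped without use of the histone genes into a melanoma-like class and a T-like and NK-like class, and each cell was called S, G2/M or neither from cell cycle gene lists that hold no member. S-called cells were deeper than cells called neither, with median UMIs of 20237 against 16750 in the melanoma-like and 7243 against 3572.5 in the T-like and NK-like class. Counts were also taken from cells thinned to 1000 UMIs, but the part of depth in the state calls was not tested. Levels are CPM, a gene's UMIs scaled to 1e6 gene UMIs of the same cells. UMIs mark molecules, so they do not scale with transcript length, but genes with near-identical copies lose reads that map to more than 1 place. In 22 of the 54 genes under 50% of the transcript's 50-base stretches are unique among annotated transcripts, so their counts are uncertain.

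In S-called melanoma-like cells, 23 of the 43 histone genes that passed the count filter rose and 5 fell against cells called neither (edgeR's quasi-likelihood test over 11177 genes with the library as block, adjusted p under 0.05). Over all genes tested, 20.9% rose and 23.9% fell. The median log2 change of the 43 was 1.20, against -0.06 over all genes. The filter took both classes together. Of the 43, 8 lie in a stretch of chromosome 13 that is near 0 in melanoma-like cells (below). These hold too few melanoma-like UMIs to show a change, and 0 of them were called. The other 35 hold all 23 rises and 5 falls, with a median log2 change of 1.57. Among the H1 genes, 3 of 6 rose and 1 fell, and rises were seen in 6 of 10 H2A, 5 of 12 H2B, 5 of 8 H3 and 4 of 7 H4 genes. The 4 libraries stand for the replicates here, each from another treatment.

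Hist1h1e, which encodes the widely expressed linker histone H1.4, had 51.9, 85.6, 38.6 and 82.8 CPM in S-called melanoma-like cells of the aPD-1, D+F, D+F+P and control libraries, against 6.48, 5.36, 4.08 and 8.69 CPM in cells called neither. Every library was higher in S-called cells, and the ranges did not overlap (log2 change 3.42 ± 0.17 SE, adjusted p = 4.84e-21). Hist1h1d, which encodes H1.3, had 13.6, 16.4, 12.04 and 33.0 CPM in the S-called cells of the same libraries, against 1.02, 1.05, 0.58 and 0.83 CPM in cells called neither (log2 change 4.39 ± 0.25 SE, adjusted p = 8.82e-19). Hist1h1t, known as the testis linker histone, rose by 3.93 ± 0.39 SE on the log2 scale (adjusted p = 1.49e-10). It had 2.12 to 6.69 CPM in S-called melanoma-like cells and 0 UMIs in S-called T-like and NK-like cells of all 4 libraries.

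Hist1h1c, which encodes H1.2, went the other way. It had 13.3, 21.8, 15.6 and 23.3 CPM in S-called melanoma-like cells of the aPD-1, D+F, D+F+P and control libraries, against 35.4, 28.0, 28.0 and 33.0 CPM in cells called neither. The groups did not overlap, and the log2 change was -0.68 ± 0.13 SE (adjusted p = 5.05e-05). With cells thinned to 1000 UMIs the change of Hist1h1c was -0.82 and did not pass the test (adjusted p = 0.0927). Hist1h2bc, an H2B gene, had 18.6, 17.9, 27.6 and 13.9 CPM in S-called cells, against 59.9, 46.1, 62.0 and 31.5 CPM in cells called neither (log2 change -1.34 ± 0.10 SE, adjusted p = 3.41e-15). Hist1h3d, Hist1h4h and Hist3h2a also fell, with log2 changes of -2.92, -1.58 and -1.85. No stem-loop was found in the annotated transcript of Hist1h2bc, and those of Hist1h1c, Hist1h3d and Hist3h2a run 840, 752 and 1643 bases past it, but that of Hist1h4h ends 46 bases after it.

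The largest rises among tested genes were those of Hist1h2af (log2 change 6.43 ± 0.43 SE), Hist1h1d and Hist2h2bb (4.13 ± 0.28 SE). Of the 306 melanoma-like UMIs of Hist1h2af, 146 were in S-called cells. G2/M-called cells of the aPD-1, D+F, D+F+P and control libraries held 47, 31, 8 and 71. Few were left in cells called neither, so the size of this change rests on a reference near 0. Only 20.3% of its 50-base stretches are unique, so its count is uncertain. Of the genes with most UMIs in their family, Hist1h2ae (H2A) rose by 2.60 ± 0.12 SE and Hist1h3e (H3) by 1.78 ± 0.25 SE on the log2 scale. With thinned cells the change of Hist1h3e was 0.37 ± 0.51 SE and did not pass the test. Hist1h4i (H4) rose by 0.35 ± 0.14 SE (adjusted p = 0.0362). Against cells called neither, G2/M-called melanoma-like cells had 24 genes higher and 4 lower of the 43, where 19.9% and 20.7% of all genes were called. All of these calls fell among the 35 genes outside the chromosome 13 stretch. Between S-called and G2/M-called cells, 3 were higher and 3 lower, with 8.65% and 9.71% of all genes called. Without the D+F library 1 was higher, and with DESeq2 1 was lower. The 3 higher in S-called cells were Hist1h1d, Hist2h2ac and Hist1h2ae.

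In T-like and NK-like cells, 27 of the 43 genes rose in S-called cells against cells called neither and 1 fell, where 10.7% and 14.1% of all genes were called. The median log2 change was 2.13. Of the 8 tested genes in the chromosome 13 stretch, 7 were among the rises. These 8 passed the count filter mostly through S-called and G2/M-called cells of this class. Their direction was thus largely fixed in advance, and no p-value is given for them here. Of the other 35 genes, 20 rose and 1 fell, with a median log2 change of 1.87. Hist1h2ap, in that stretch, is an H2A gene with a short transcript after its stem-loop. It had 119, 92.1, 174 and 110 CPM in S-called cells of the aPD-1, D+F, D+F+P and control libraries. In cells called neither it had 6.29, 0, 8.49 and 0 CPM (log2 change 4.39 ± 0.26 SE). Only 6.9% of its 50-base stretches are unique, so its count is uncertain. Hist1h1b, also there, encodes H1.5, and its 50-base stretches are all unique. It had 134, 142, 96.8 and 156 CPM in S-called cells. In cells called neither it had 10.5, 10.7, 10.0 and 14.9 CPM (log2 change 3.46 ± 0.30 SE). Hist1h2bc fell here too, by 1.27 on the log2 scale (adjusted p = 0.0209), a call that is lost without the aPD-1 library or without the D+F+P library (0 genes lower). G2/M-called cells, a comparison added after the S-called values were seen, had 33 of the 43 genes higher than cells called neither and 0 lower. Over all genes 9.92% and 12.3% were called. The 33 include all 8 genes of the chromosome 13 stretch, and outside it 25 of 35 were higher. The change with the S call itself was larger in T-like and NK-like than in melanoma-like cells for 3 genes and smaller for 2, where 1.37% and 3.44% of all genes were called.

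**Figure D1:**
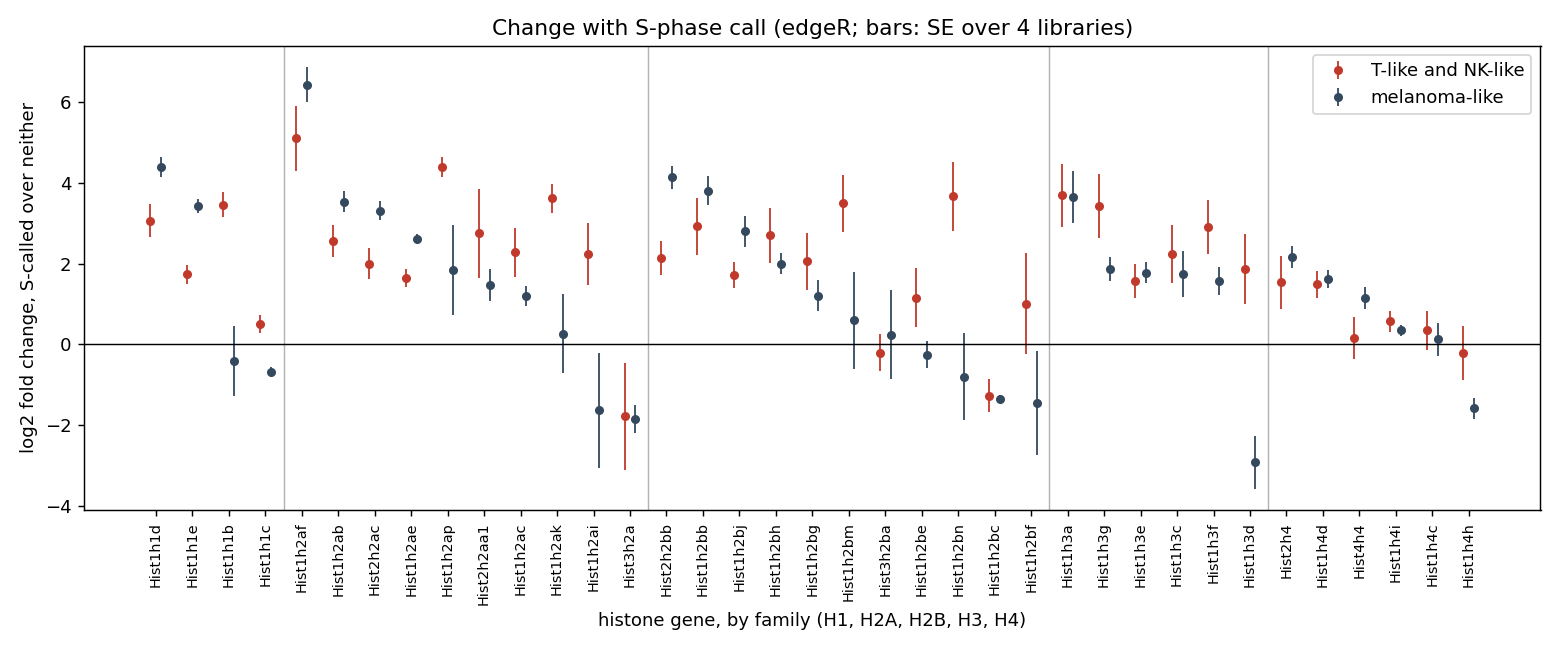
The log2 fold change of each gene in S-called cells over cells called neither, by histone family, in T-like and NK-like cells and in melanoma-like cells, with SE bars. The 37 of 43 tested genes with an SE of at most 2 in both classes are drawn, and Hist1h2af has the highest melanoma-like value at 6.43.

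The genes of 1 stretch of chromosome 13 were near 0 in melanoma-like cells. Histone genes were split into runs at gaps of over 100 kb, a split chosen after the levels were seen. The run at chr13:21715763-21837530 on GRCm38 holds 18 histone genes, 10 of them with 20 or more UMIs. All 18 are counted here, since the 10 reached that count mostly through T-like and NK-like cells. The 18 genes had 3774 UMIs (351 CPM) in T-like and NK-like cells, against 65 UMIs (0.673 CPM) in melanoma-like cells, a ratio of 521. In the other 5 runs with counts the same ratio was 2.36 to 5.68.

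Hist1h1b lies in that run. In S-called cells it had 162, 108, 230 and 24 UMIs in T-like and NK-like cells of the aPD-1, D+F, D+F+P and control libraries, against 3, 0, 3 and 0 UMIs in melanoma-like cells. In control, 1 barcode held 19 of the 24. Every library had more in T-like and NK-like cells, although their summed depth was lower in each (log2 difference 8.82 ± 0.34 SE). The gene passed the count filter mostly through T-like and NK-like cells, so no p-value is given for this difference. Over S-called cells of all libraries, the 18 genes had 1660 UMIs in T-like and NK-like cells, against 17 in melanoma-like cells. Of them, 3 had 0 UMIs in the S-called T-like and NK-like cells, against 12 in the melanoma-like cells, where none had more than 6. The other 49 histone genes in the files had 3663 UMIs in S-called T-like and NK-like cells, against 7417 in S-called melanoma-like cells. These are raw UMIs, and the melanoma-like sums are deeper. Scaled for depth, the 35 tested genes outside the run had a median log2 difference of 1.81, higher in T-like and NK-like cells. Hist1h3i, an H3 gene, was at least 72.5-fold higher in T-like and NK-like cells, taking the melanoma-like sum at a floor of 3 UMIs. Over all states it had 102 UMIs in T-like and NK-like cells and 0 in melanoma-like cells. It thus met the count rule mostly through the former, and its direction was largely fixed in advance. Only 12.4% of its 50-base stretches are unique, so its count is uncertain.

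Low melanoma-like counts were not confined to the run. Hist1h1a, which encodes H1.1 and lies in the last long run, had 121 UMIs in S-called T-like and NK-like cells, against 1 in S-called melanoma-like cells. Hist1h2bf had 7 against 0, and Hist1h3b had 14 against 1. The S-called T-like and NK-like cells were higher than the S-called melanoma-like cells for 37 of 43 genes and lower for 2, Hist1h2bc and Hist1h1t. The 37 include all 8 tested genes of the run. These passed the count filter mostly through T-like and NK-like cells, as did Hist1h1a, so their direction was largely fixed in advance. Outside the run 29 of 35 were higher. That comparison was added after the levels were seen, and 34.7% and 36.9% of all genes were called in it, so a call alone says little here. In cells called neither, 26 of 43 were higher and 2 lower in T-like and NK-like cells, with 35.2% and 34.1% of all genes called, and the lower ones were Hist1h2bc and Hist2h2be. The 26 again include all 8 of the run, and outside it 18 of 35 were higher. The S-called shift was smaller for the other H1 genes, with log2 differences of 1.61 for Hist1h1e, 1.95 for Hist1h1d and 2.22 for Hist1h1c.

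**Figure D2:**
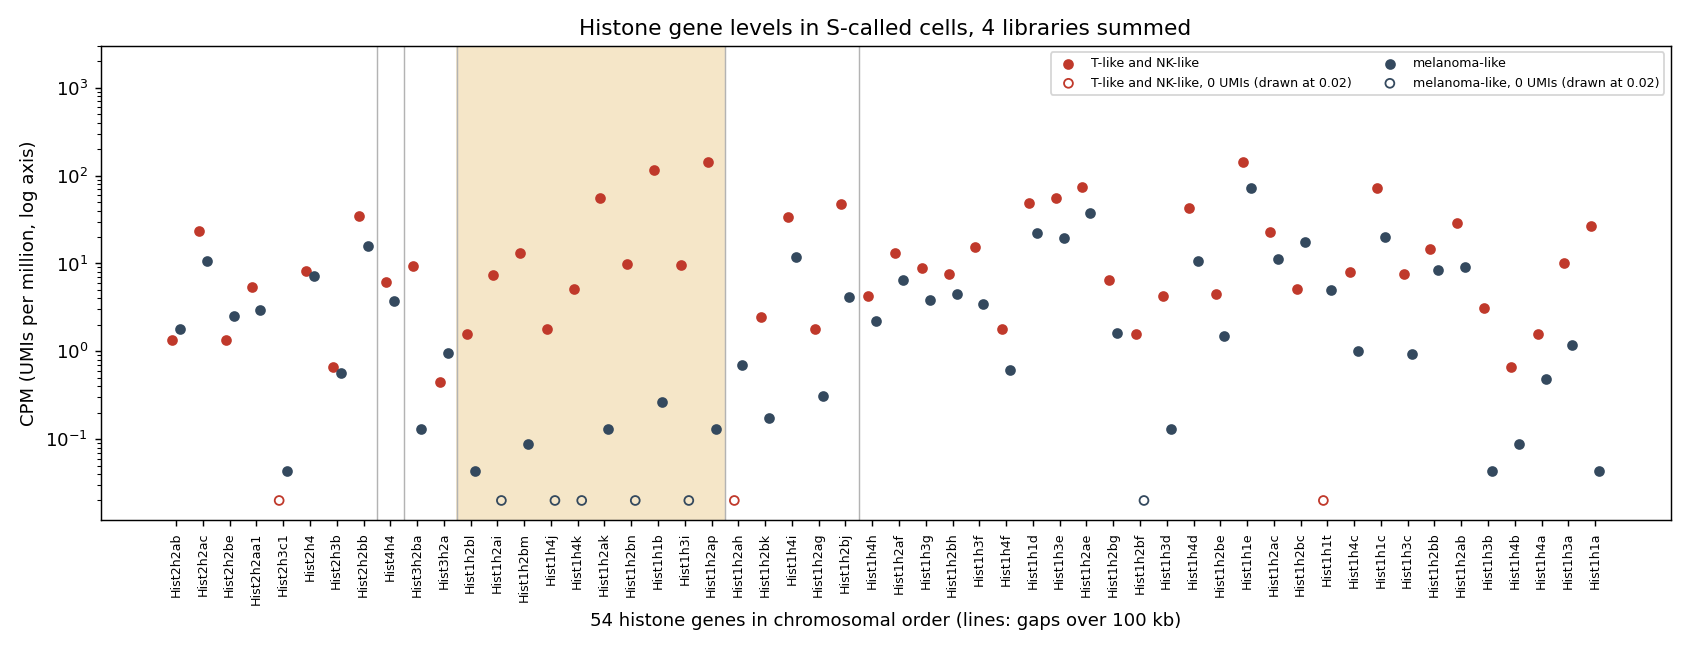
CPM on a log axis of the 54 genes in chromosomal order in S-called T-like and NK-like cells and in S-called melanoma-like cells, 4 libraries summed, with open points for 0 UMIs and the chromosome 13 run shaded. Within the shading no melanoma-like gene has more than 6 UMIs, and Hist1h2ap reaches 143 CPM in T-like and NK-like cells.

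By cluster, the 18 genes had 188 to 394 CPM in the 5 T-like and NK-like clusters, against 0.46 to 1.89 CPM in the 7 melanoma-like clusters. Monocyte/macrophage-like cells had 26.8 CPM, fibroblast-like cells 37.9 CPM and the 2 conventional dendritic-like clusters 103 and 113 CPM. Of the unnamed clusters, the one nearest to melanoma-like cells had 61.5 CPM and those nearest to T-like cells 98.5 and 161 CPM. Among genes within 500 kb of the run that are not histone genes, 6 of 21 before it and 2 of 12 after it had 20 or more UMIs in melanoma-like cells, such as Zkscan3 with 821 and Zfp184 with 140. In melanoma-like cells of the aPD-1, D+F, D+F+P and control libraries the 18 genes had 25, 16, 22 and 2 UMIs, beside 103, 56, 166 and 23 UMIs of 7 T cell markers. Per 100 T marker UMIs that is 8.21, 8.92, 7.77 and 17.6 in T-like and NK-like cells, against 24.3, 28.6, 13.3 and 8.70 in melanoma-like cells. The part of T cell RNA in these few UMIs was not tested.

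The libraries were then compared within a class. With 1 library per group there is no replicate check, and each ratio compares libraries, with exact 95% intervals that cover counting error only. In melanoma-like cells the 54 genes summed to 230, 211 and 184 CPM in the aPD-1 library, in D+F and in D+F+P, against 272 CPM in control. The log2 ratios were -0.24 (-0.29 to -0.19), -0.36 (-0.41 to -0.31) and -0.57 (-0.63 to -0.50). The families differed, with ratios of -0.49, -0.55 and -1.14 for H1 genes against 0.32, 0.00 and 0.17 for H2B genes. Without Hist1h1e the sums gave -0.13, -0.30 and -0.38. The S-phase list stood beside them at -0.59, -0.48 and -0.66. Cells called neither made up 59.4%, 58.8% and 62.4% of melanoma-like cells in aPD-1, in D+F and in D+F+P, against 40.7% in control.

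Within states the order of the libraries differed. S-called melanoma-like cells had 262, 323 and 230 CPM in aPD-1, in D+F and in D+F+P, against 384 CPM in control. G2/M-called cells had 355, 256 and 188 CPM, against 331 CPM in control. Without the barcode with most histone UMIs in each library, G2/M-called cells had 318 CPM in aPD-1, against 321 CPM in control. Cells called neither had 166, 145 and 166 CPM, against 127 CPM in control, and Hist1h2bc and Hist1h4h made up most or all of each gap. These 2 stood above control in every treated library, so leaving them out had to narrow the gap. Without these 2 genes the sums were 98.4, 92.03 and 89.2 CPM, against 92.8 CPM in control. In S-called cells, 0, 1 and 1 genes were at least 1.5-fold higher and 12, 11 and 17 at least 1.5-fold lower in aPD-1, in D+F and in D+F+P than in control, of 28, 27 and 26. Over all genes there, 4.38%, 4.04% and 7.47% were that much higher and 6.26%, 6.23% and 13.9% that much lower. In G2/M-called cells, 8, 1 and 2 genes were at least 1.5-fold higher and 3, 12 and 19 lower, of 29 each. Over all genes there, 5.81%, 5% and 7.53% were higher and 6.05%, 4.98% and 13% lower. In cells called neither, 5, 4 and 8 genes were higher and 4, 3 and 4 lower, of 23, 24 and 20. Over all genes there, 5.34%, 6.05% and 8.41% were higher and 6.1%, 6.02% and 9.59% lower. The log2 ratio of D+F+P to control was -0.74 (-0.86 to -0.62) in S-called cells and 0.39 (0.28 to 0.49) in cells called neither. Without Hist1h2bc and Hist1h4h these were -0.87 (-1.01 to -0.75) and -0.06 (-0.19 to 0.08).

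**Figure D3:**
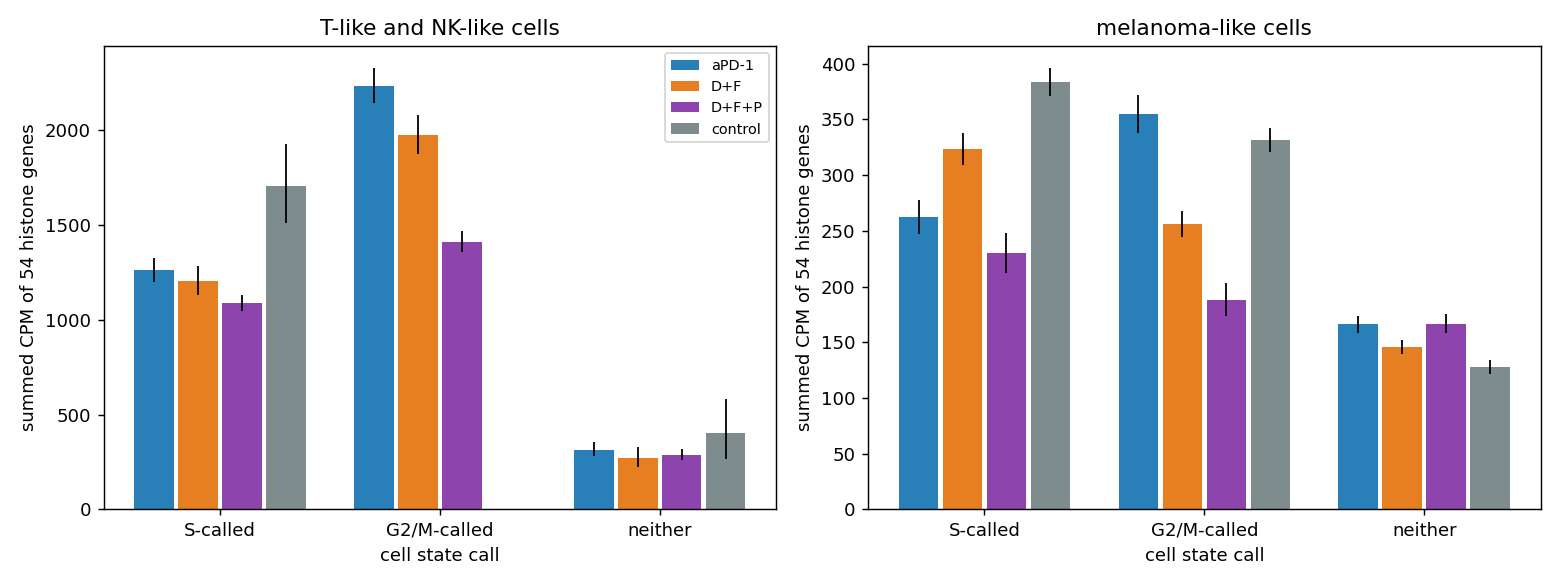
Summed CPM of the 54 genes by cell state and library in T-like and NK-like cells and in melanoma-like cells, with exact 95% Poisson intervals. In control S-called T-like and NK-like cells 1 barcode holds 117 of the 263 UMIs. The bar of control G2/M-called T-like and NK-like cells is left out because it holds 15 cells. In S-called melanoma-like cells D+F+P stands lowest at 230 CPM and control highest at 384 CPM.

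Single genes differed in both directions. In melanoma-like cells, 4, 4 and 3 genes were at least 1.5-fold higher and 15, 17 and 24 at least 1.5-fold lower in the aPD-1 library, in D+F and in D+F+P than in control, of 35, 37 and 35 with 20 or more UMIs in the pair. Over all genes, 6.70%, 7.47% and 9.89% were that much higher and 6.03%, 5.14% and 10.7% that much lower. Hist1h1e had 30.4, 33.9 and 15.3 CPM in aPD-1, in D+F and in D+F+P, against 53.5 CPM in control, and its log2 ratio was lowest in D+F+P at -1.80 (-2.01 to -1.60). Hist1h1b had 11, 3, 15 and 0 UMIs in the aPD-1, D+F, D+F+P and control libraries.

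Among genes with 50 or more UMIs in the pair, Hist1h4h had the highest ratio in every treated library. It had 5.92, 4.96 and 9.77 CPM in aPD-1, in D+F and in D+F+P, against 2.51 CPM in control, with log2 ratios of 1.24, 0.98 and 1.96. Hist3h2a was second in each, with 3.46, 2.71 and 3.94 CPM against 1.53 CPM in control. Both genes also fell in S-called cells.
The lowest ratios were those of Hist1h2bj (-1.36) and Hist1h1d (-1.32) in aPD-1. In D+F and D+F+P they were those of Hist2h2ab (-1.80 and -2.78) and Hist1h2bb (-1.54 and -2.51). Hist1h2bc was higher in cells called neither than in S-called or G2/M-called cells. Over all melanoma-like cells it had 42.6, 33.5 and 48.3 CPM in aPD-1, in D+F and in D+F+P, against 20.4 CPM in control. Within cells called neither it still had log2 ratios of 0.93, 0.55 and 0.98, and Hist1h4h 1.35, 1.28 and 2.36.

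**Figure D4:**
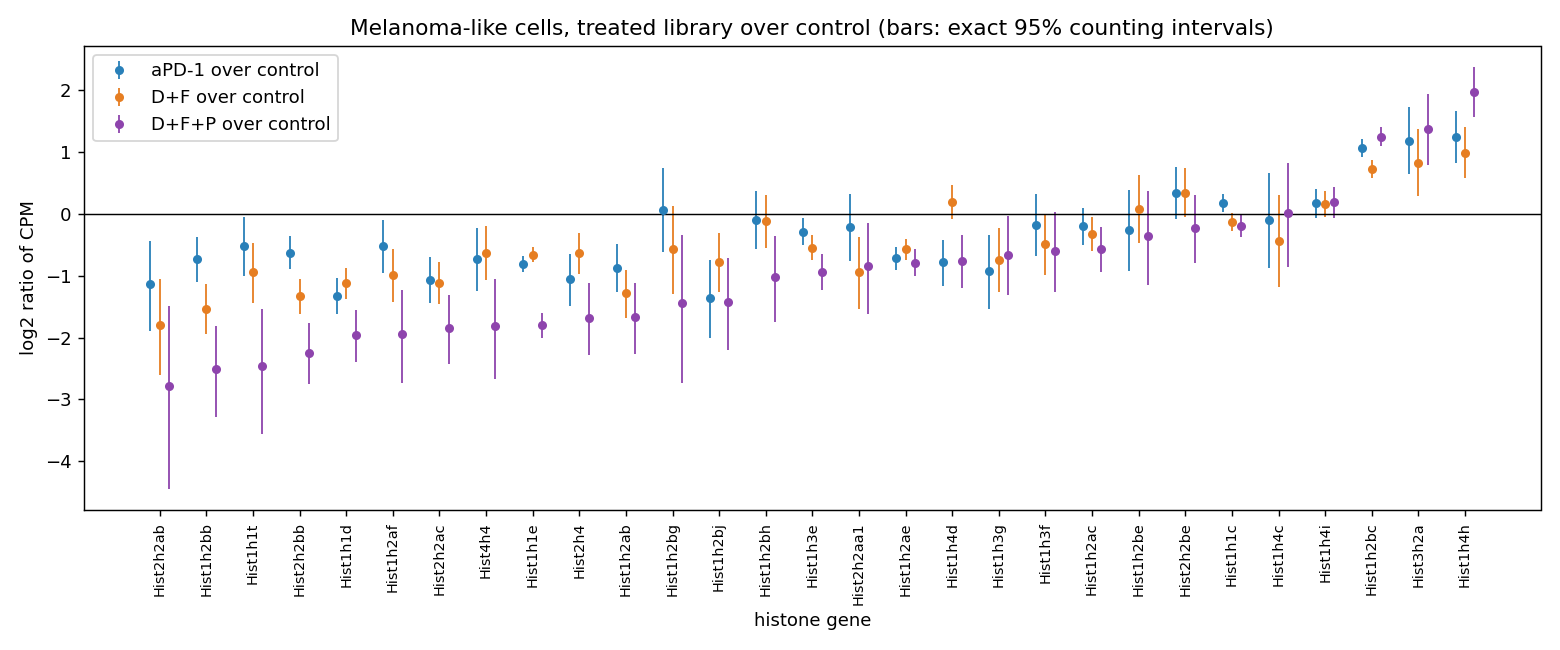
Log2 ratio of CPM in melanoma-like cells of each treated library over control for the 29 genes with 50 or more UMIs in every pair, with exact 95% counting intervals. Hist1h2bc, Hist3h2a and Hist1h4h stand above 0 in all treated libraries, and Hist1h4h reaches 1.96 in D+F+P.

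Between treated libraries, the summed log2 ratio in melanoma-like cells was -0.20 (-0.27 to -0.14) for D+F+P against D+F and -0.32 (-0.39 to -0.25) for D+F+P against aPD-1. Against D+F, 1 gene was at least 1.5-fold higher and 15 lower of 32, where 5.26% and 4.9% of all genes were. Against aPD-1, 2 were higher and 15 lower of 31, where 5.48% and 4.34% of all genes were. In T-like and NK-like cells the sum was 1284, 1313 and 996 CPM in aPD-1, in D+F and in D+F+P, against 1371 CPM in control, which had 85 such cells. The log2 ratios were -0.09 (-0.23 to 0.05), -0.06 (-0.21 to 0.09) and -0.46 (-0.60 to -0.32). In control 1 barcode held 117 of the 460 histone UMIs (25.4%). Without the barcode with most histone UMIs in each library, a setting added after that share was seen, the sums were 1225, 1230 and 977 CPM, against 1093 CPM in control. The log2 ratios were then 0.16, 0.17 and -0.16, so those of aPD-1 and D+F turned. With cells thinned to 1000 UMIs they were 0.19, 0.13 and -0.083. In these cells 6, 3 and 6 genes were at least 1.5-fold higher and 15, 8 and 18 lower, of 34, 26 and 36. Over all genes 17.8%, 15.2% and 20.7% were higher and 18.8%, 17.1% and 20.2% lower. The S-phase list there had ratios of -0.13, -0.09 and -0.06. The cell mix of this class also differed between libraries. The NK-like cluster held 43, 46 and 78 cells in aPD-1, in D+F and in D+F+P, against 40 in control. The largest T-like cluster held 318, 150 and 363 cells, against 6 in control. Over all libraries the histone genes summed to 781 CPM in the NK-like cluster and 1228 CPM in that T-like cluster. The part of this mix in the ratios was not tested.

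Thin barcodes differed from deeper ones in opposite ways in the 2 classes. Most thin barcodes of both classes fell in unnamed clusters, so clusters nearest to each class were counted with it. In T-like and NK-like barcodes the genes summed to 593, 618, 560 and 473 CPM in thin barcodes of the aPD-1, D+F, D+F+P and control libraries, against 1279, 1316, 986 and 1379 CPM in deeper ones. Of 14 genes tested, 10 were lower in thin barcodes and 0 higher, where 38.7% and 30.1% of all genes were called. Without the D+F+P library 6 of 9 were lower, without control 16 of 23, and with no filter on low counts 25 of 54. Hist1h2ap fell by 3.80 ± 0.33 SE and Hist1h1b by 2.14 ± 0.27 SE on the log2 scale. Hist1h4d (0.17 ± 0.27 SE) and Hist1h2ae (-0.26 ± 0.24 SE) did not pass the test.

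In melanoma-like and nearest barcodes the sums were 814, 1692, 1212 and 1994 CPM in thin barcodes, against 231, 211, 185 and 272 CPM in deeper ones. This comparison was added after the levels were seen. Of 26 genes tested, 13 were higher in thin barcodes and 0 lower, where 2.24% and 8.01% of all genes were called. Without the D+F library 7 were higher. Hist1h1e had 3, 28, 5 and 34 UMIs in thin barcodes (55.5, 292, 93.2 and 427 CPM), against 30.5, 33.9, 15.4 and 53.5 CPM in deeper ones (log2 change 2.19 ± 0.32 SE). No single thin barcode held more than 1.86% of the class's 430 thin UMIs of these genes. Within a library the top thin barcode held more, at 18.2% of 44 UMIs in aPD-1, 4.32% of 162 in D+F, 12.3% of 65 in D+F+P and 3.14% of 159 in control.

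**Figure D5:**
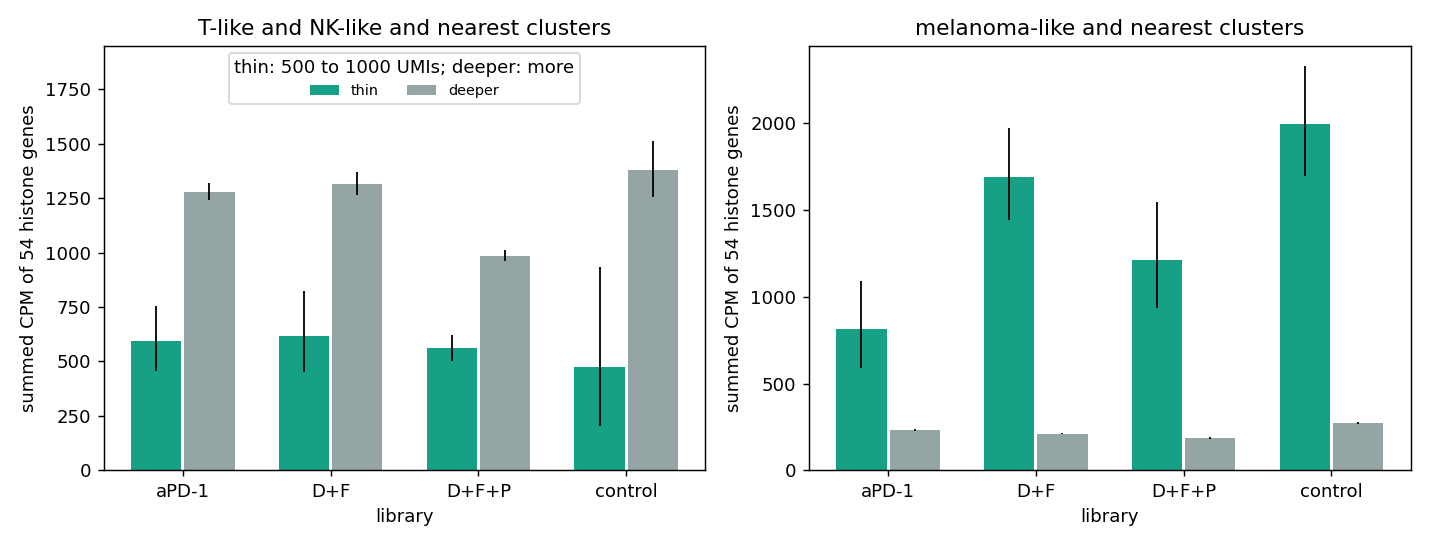
Summed CPM of the 54 genes in thin and deeper barcodes of each library, for T-like and NK-like and for melanoma-like barcodes with their nearest clusters, with exact 95% Poisson intervals. Thin barcodes are lower in every library on the left, and higher in every library on the right, where control reaches 1994 CPM.

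Other values moved with the thin barcodes. The median share of ribosomal protein UMIs was 8.24% in thin T-like and NK-like barcodes, against 26.7% in deeper ones, and the mitochondrial share 9.61% against 1.82%. In melanoma-like barcodes the ribosomal share was 14.2% in thin barcodes, against 21.1% in deeper ones. The mitochondrial share was 0.235%, 3.50%, 5.65% and 12.7% in thin melanoma-like barcodes of the aPD-1, D+F, D+F+P and control libraries, against 2.30% to 2.91% in deeper ones. Melanoma markers summed to 1412 to 3467 CPM in thin T-like and NK-like barcodes, against 143 to 343 CPM in deeper ones. The T markers summed to 50.2 to 988 CPM in thin melanoma-like barcodes, against 0.9 to 12.4 CPM in deeper ones. The S-phase list was at 1995 to 2903 CPM in thin melanoma-like barcodes, against 1155 to 1822 CPM in deeper ones. The part of these values in the differences was not tested.

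Genes that supply or handle histones were also counted. Of 18 in the list, 17 were tested in melanoma-like cells, and 14 rose and 1 fell in S-called cells against cells called neither, where 20.9% and 23.9% of all genes did. Their median log2 change was 0.92. In G2/M-called melanoma-like cells 12 rose and 1 fell. In S-called T-like and NK-like cells 9 rose and 2 fell, with the shares of all genes as given above for both comparisons. The highest in S-called melanoma-like cells were the chaperone Asf1b (3.94 ± 0.11 SE) and the CAF-1 subunits Chaf1a (3.63 ± 0.11 SE) and Chaf1b (3.58 ± 0.09 SE). Slbp rose there by 1.72 ± 0.08 SE, while Lsm10, of the U7 particle that cuts histone mRNA, fell by 0.29. Daxx (0.09) and Atrx (0.01) did not pass the test in the melanoma-like cells. In S-called T-like and NK-like cells Daxx was called lower (-0.57). Of 11 replacement variant genes, whose mRNAs are polyadenylated, 9 were tested. In S-called melanoma-like cells 4 rose and 1 fell, beside the same 20.9% and 23.9% of all genes. In G2/M-called cells 7 rose and 1 fell, and S-called cells were lower than G2/M-called cells for 6 and higher for 1. The shares of all genes called in these comparisons are those given above with the histone counts. In S-called melanoma-like cells H2afx rose by 1.44 ± 0.09 SE and H2afz by 1.13 ± 0.09 SE against cells called neither. H2afv rose by 0.75 ± 0.08 SE, while H2afj fell by 0.21.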

How the data were processed

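Each deposited matrix gives raw UMI counts, whole numbers by gene and cell barcode, which the authors made with Cell Ranger 3.1.0 on GRCm38, per the submitters' processing notes. The annotation release is not given in the sources used here. Kept barcodes had at least 300 genes and 500 UMIs, with mitochondrial UMIs at 20% or less (scanpy 1.11.5). The doublet caller marked 46 of 9461 barcodes (0.486%), under 0.5%, so doublets remain. Clusters (2000 variable genes without histones, 30 components, 15 neighbours, resolution 1) were named by markers, and unnamed ones joined their nearest class only for thin barcodes. Counts were summed per class, state and library (at least 20 cells) and tested with edgeR 4.0.16, library as block, Benjamini-Hochberg over all genes. Control G2/M-called T-like and NK-like cells were left out of the fits. The higher state score lay within 0.05 of the limit of 0 in 10.2% of melanoma-like and 28.7% of T-like and NK-like cells.

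Tested on simulated data for S-called against neither in melanoma-like cells (11168 genes, spread from the real sums), 94% of 2-fold and 92.9% of 4-fold changes were recovered, and 4.62% of calls were false. Named genes were all H1 genes, those with most UMIs per family, and those at the ends of each comparison. Members and lists were chosen with earlier results of these data known. Tried alternatives were DESeq2 1.42.0, other factors, no filter, no block, thinning, stricter scores, leaving out libraries or (added) single barcodes, and own-marker names. The library block takes out each library's own level, so p-values measure how the contrasts vary between libraries, pooled over the groups of a fit. With nothing said of separate animals, they do not measure the spread between animals. The V(D)J files were not used here.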

Additional observations from a re-analysis of the deposited data

Results flagged for a closer look

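The change from cells called neither to S-called cells differed between the classes for 5 of 43 genes by a test of the difference itself (edgeR, adjusted p under 0.05). Over all genes 1.37% had a larger change in T-like and NK-like cells and 3.44% a smaller one. As T-like and NK-like minus melanoma-like, the log2 difference was 4.79 for Hist1h3d, 3.87 for Hist1h1b and 1.18 for Hist1h1c. It was -0.95 for Hist1h2ae and -1.69 for Hist1h1e, whose changes were smaller in T-like and NK-like cells. The melanoma-like value of Hist1h1b rests on 6 UMIs in S-called cells, and that of Hist1h3d on 3. Without the aPD-1 library none of the 3 larger changes was called (0 genes), and with no library block neither smaller one was (0 genes).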

How the results depend on the processing

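With cells thinned to 1000 UMIs, 11 histone genes could be tested. The calls were then 4 higher and 1 lower for S-called against neither in melanoma-like cells, 4 and 1 for G2/M-called, and 0 and 0 for S-called against G2/M-called. They were 5 and 0 for S-called against neither in T-like and NK-like cells, and 7 (added comparison) higher for G2/M-called. Between the classes they were 7 and 1 in cells called neither and 8 and 0 in S-called cells, and for the difference of changes 0 and 1. The smaller number tested is part of that loss. Thin barcodes at 500 UMIs left 0 lower calls in T-like and NK-like barcodes (2 tested) and 3 higher in melanoma-like ones (3 tested).

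For S-called against G2/M-called cells, no filter gave 5 higher, and DESeq2, no library block and state scores over 0.1 gave 1 lower each. Leaving out a library gave 1 to 5 higher and 1 to 3 lower. For S-called against neither in T-like and NK-like cells, no block gave 0 lower, and leaving out a library gave 0 to 1. For the difference of changes, DESeq2 gave 1 higher, no filter 4 lower and no block 0 lower, and leaving out a library gave 0 to 3 higher and 1 to 2 lower. Between the classes, other (RLE) factors gave 4 lower in cells called neither, and leaving out a library gave 1 to 3 lower in S-called cells. In that comparison of cells called neither, Hist1h3b turned to 4.09 with DESeq2. Leaving out a library gave -0.22 to 6.25 for Hist1h4k and -1.64 to 4.58 for Hist1h2bf. For thin T-like and NK-like barcodes no filter gave 25 lower, and leaving out a library 6 to 16. For thin melanoma-like barcodes leaving out a library gave 7 to 13 higher. The cause was not tested.

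The summed log2 ratios to control in melanoma-like cells with thinned cells were -0.12 (aPD-1) and -0.44 (D+F+P). With median-of-ratios scaling they were -0.19 for aPD-1, -0.29 for D+F and -0.47 for D+F+P. In T-like and NK-like cells thinning gave 0.19 for aPD-1, 0.13 for D+F and -0.083 for D+F+P, and leaving out the barcode with most histone UMIs in each library gave 0.16, 0.17 and -0.16. Over single genes and alternatives, 1834 called values kept their call, 172 lost it and 2 changed sign. Of values not called, 1394 stayed so, 45 gained a call and 1 gained one with the other sign. No paired analysis between treatment groups was possible because each group has 1 library, so the groups share only the number 1. Comparisons of states, classes and thin barcodes were paired through the library block. Depth left 11 of the 54 genes untested.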
